A study of Homo sapiens with 4 samples.

Results

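Interferon-stimulated genes are the genes that cells switch on when interferon, a secreted alarm protein of viral infection, binds its receptor. The set described here holds 35 such genes, picked by name from the textbook antiviral response: the IFIT, OAS and MX families, ISG15 with its conjugation partners, the RNA sensors RIG-I and MDA5, the transcription factors that drive the response, and further antiviral effectors. All 35 were found by gene symbol among the 25122 genes of the deposited table, RIG-I under its older symbol DDX58. Of these, 34 had a mean of at least 10 normalized counts over the libraries and entered the test, out of 19301 genes tested. The genes were chosen by name and not by a measured value, but with earlier results of these data known, so the set was not drawn up blind.

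The libraries came from Jurkat cells, an immortal human leukaemia line of T-cell origin (T-ALL), so everything below concerns 1 cell line. One group carried a control short hairpin RNA (shcontrol, n = 2) and the other a short hairpin RNA against BDH1 (shBDH1, n = 2), and all 4 libraries have the genotype label WT. No interferon, virus or other stimulus is named in the labels, and the number of different hairpins is not given in the sources used here. The series' design text also speaks of MYC being put back, and such cells were not analysed here. BDH1 is the mitochondrial enzyme that interconverts the ketone bodies acetoacetate and 3-hydroxybutyrate.

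In the canonical pathway, type I interferons bind the receptor pair IFNAR1 and IFNAR2, and the kinases JAK1 and TYK2 then phosphorylate STAT proteins such as STAT2. These join IRF9 in a complex that binds the interferon-stimulated response element, a promoter sequence built from repeated GAAA boxes. Interferon-gamma acts mainly through another promoter sequence, the gamma-activated site, and IRF1 and IRF7 can bind response elements as well. Cells also keep a low tonic level of many of these genes without added interferon.

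The libraries were of like depth, with 28681511 and 28797402 reads in genes for shcontrol and 29453383 and 28777374 for shBDH1. BDH1, the targeted gene, had 1725 and 1911 normalized counts in shcontrol and 1221 and 1412 in shBDH1, and its groups did not overlap. It fell by 0.47 on the log2 scale (SE 0.08, limma adjusted p = 1.5e-05), which left most of the transcript in place. All 13 markers of the T lineage that were looked for were measured, and their summed level was 66354 and 66579 in shcontrol and 68753 and 67922 in shBDH1. That sum holds changes in both directions: 7 of the 13 rose and 3 fell, from DNTT at -2.15 and RAG1 at -0.96 (log2) to TAL1 at 0.75 and CD7 at 1.27. Fewer genes were at 0 in the shBDH1 libraries (970 and 1067) than in shcontrol (1601 and 1644). What part that difference has in the results on low genes was not tested.

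Promoter sequences show what most of the genes with a promoter at hand share, before any of their levels is considered. RefSeq promoters of build GRCh38.p14, from 250 bases before to 50 after the start site, were at hand for 29 of the 35 genes; IFIT2, OAS2, OASL, MX2, USP18 and IRF7 had none. The response element core was searched as GAAANNGAAA on both strands, and overlapping matches were each kept. It stood in 17 of the 29 promoters (58.6%), against 996 of all 27305 promoters of the same length (3.65%). A stricter form, GAAANNGAAACT, of which every match also holds a core, stood in 11 of the 29 (37.9%) and in 74 of all promoters (0.271%). The gamma-activated site TTCNNNGAA, also searched on both strands, stood in 8 of the 29 (27.6%) and in 2152 of all promoters (7.88%).

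The stretches around the element are shown for 5 genes that rose in shBDH1 and 4 that did not pass the test, so that their elements can be set side by side. Each surrounds the core that lies nearest upstream of the start site, and is written 5′ to 3′ on the strand of its gene, with the matched core in capitals. A core on the opposite strand appears as TTTC boxes. The IFI6 stretch opens inside another matched core, which begins at -115 from the start site and is left in small letters.
IFIT3: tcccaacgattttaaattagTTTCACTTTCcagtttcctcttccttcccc
OAS3: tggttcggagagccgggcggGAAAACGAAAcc
IFI6: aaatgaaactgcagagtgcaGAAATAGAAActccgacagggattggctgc
BST2: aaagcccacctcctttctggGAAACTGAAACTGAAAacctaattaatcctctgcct
PARP14: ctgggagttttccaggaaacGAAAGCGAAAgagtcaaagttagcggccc
ISG15: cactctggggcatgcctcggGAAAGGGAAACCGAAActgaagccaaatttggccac
HERC5: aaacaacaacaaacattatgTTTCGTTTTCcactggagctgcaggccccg
IFIH1: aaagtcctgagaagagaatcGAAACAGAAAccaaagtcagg
DDX60: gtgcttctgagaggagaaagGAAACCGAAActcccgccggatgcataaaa
The first 5 rose and lie at chr10:89327855-89327904 (plus strand), chr12:112938442-112938473 (plus), chr1:27672256-27672305 (minus), chr19:17405725-17405780 (minus) and chr3:122680790-122680838 (plus). The last 4 did not pass and lie at chr1:1013364-1013419 (plus), chr4:88457025-88457074 (plus), chr2:162318685-162318725 (minus) and chr4:168318776-168318825 (minus).

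The core was found in genes that rose and in genes that did not pass. It stood in 10 of the 15 promoters of genes that rose (66.7%) and in 7 of the 13 of genes that did not pass (53.8%). Overlapping cores stood in BST2, which rose, and in ISG15, HERC5 and IFIH1, which did not pass. Those of HERC5 and IFIH1 lie farther upstream than the stretches shown. Among the tested members, the 17 with a core had a median log2 fold change of 0.58 and the 11 without one of 0.14. For the stricter form the medians lay closer, at 0.57 (11 with it) and 0.34 (17 without). For the gamma-activated site they were 0.62 (7 with it) and 0.51 (21 without), and none of these differences was tested. Over all tested genes with a promoter, the 333 with a core had a median of 0.06 and 26.1% of them rose, against a median of -0.01 and 23.4% for the 10959 without. A match describes these letters in this window and does not show that a factor binds there.

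**Figure D1:**
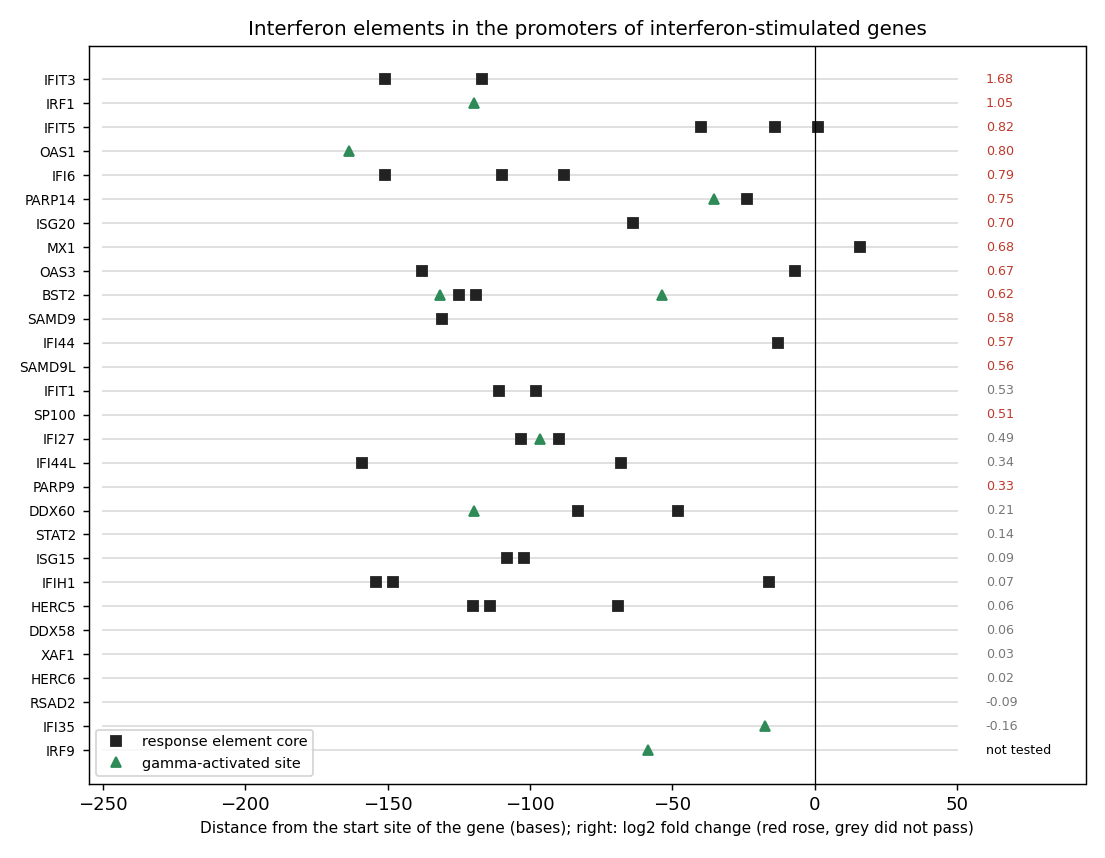
Positions of response element cores (black squares) and gamma-activated sites (green triangles) in the 29 promoters, as distance in bases from the gene's start site, with genes ordered by the log2 fold change printed at the right (red rose, grey did not pass). Cores occur at the top of the order (IFIT3, 1.68) and also among genes near 0 (ISG15, 0.09, and HERC5, 0.06).

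Across the set, 20 of the 34 tested genes rose in shBDH1 (58.8%), against 20.3% of all genes tested, and 1 fell (2.94%), against 20.8% of all. In 26 of the 34 (76.5%) both shBDH1 libraries lay above both shcontrol libraries, which was so for 34.1% of all genes tested. The median log2 fold change was 0.54 with a range of -0.27 to 2.15, while the median over all genes was -0.01 with quartiles of -0.27 and 0.31. The summed level of the 35 genes was 18207 and 18087 normalized counts in shcontrol and 24404 and 24486 in shBDH1. In bulk RNA, more cells that express these genes and more RNA per cell cannot be told apart.

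The shift was alike in both shBDH1 libraries. Taken gene by gene against the shcontrol mean, the median difference over the tested members was -0.01 and 0.01 (log2) for shcontrol and 0.52 and 0.53 for shBDH1. Most rises were moderate, and 4 genes reached a 2-fold change in the fit: OASL, IFIT3, IRF1 and OAS2. The rises did not take in the whole set, since 13 tested genes did not pass and USP18 went the other way. Of the 13, 10 had a mean over 100 normalized counts, and for those the upper end of the 95% interval was at most 0.42 (log2), so a larger rise lies outside their intervals.

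**Figure D2:**
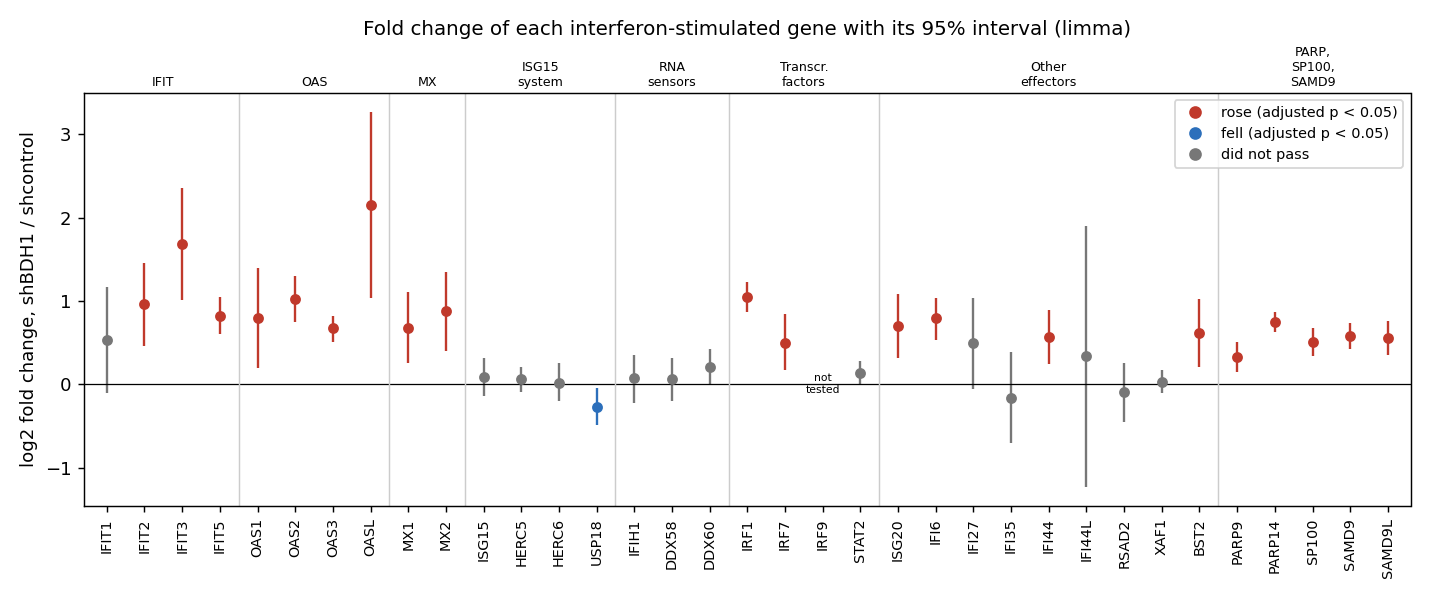
Log2 fold change of shBDH1 over shcontrol for each gene with its 95% interval from limma (n = 2 libraries per group), grouped by role; red rose, blue fell, grey did not pass, and IRF9 was not tested. All 4 OAS genes and all 5 genes of the last group lie above 0 with their intervals, while the ISG15 system and the RNA sensors lie near 0.

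**Figure D3:**
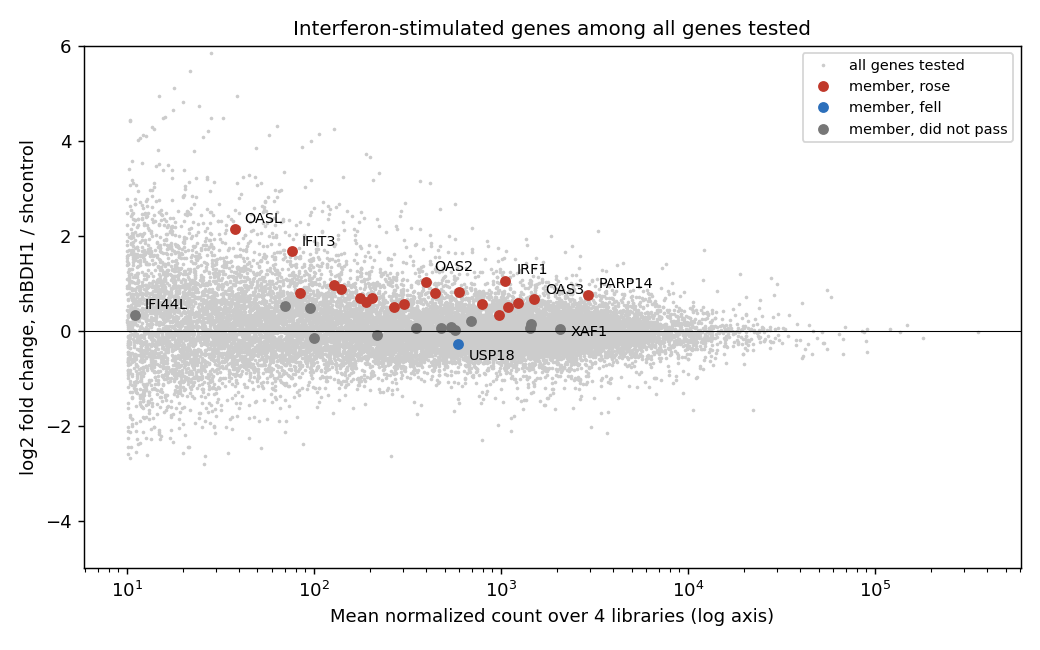
Log2 fold change against the mean normalized count over the 4 libraries (log axis) for all 19301 genes tested (small grey points), with the 34 tested interferon-stimulated genes on top. Of the 34, 31 lie above 0 and 3 below, from OASL at 2.15 to USP18 at -0.27.

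The OAS proteins sense double-stranded RNA, and the enzymes among them make the short oligoadenylates that switch on RNase L. All 4 rose. OAS2 (ENSG00000111335, chr 12) had 255.7 and 265.7 normalized counts in shcontrol and 517 and 544 in shBDH1, a log2 change of 1.02 (limma SE 0.13, adjusted p = 3.5e-07). OAS3, the largest of the family and here its most abundant transcript per length, had 1236 and 1096 in shcontrol and 1908 and 1789 in shBDH1, a rise of 0.67 (SE 0.08, adjusted p = 3.3e-08). For these genes the gap between groups was several times the gap within them.

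OAS1 was lower, with 71.9 and 51.1 in shcontrol and 109.1 and 103.6 in shBDH1, a log2 change of 0.80 (limma SE 0.29, adjusted p = 0.03). Its call rested on single libraries: it stood at 0.56 (adjusted p = 0.21) without shcontrol replicate 2, at 0.76 (0.15) without shBDH1 replicate 1 and at 0.84 (0.1) without shBDH1 replicate 2. The antisense gene AC004551.1 shares 92 exon bases with OAS1 and had 1614.1, 1707.8, 2486.7 and 2631.7 normalized counts in the same order of libraries. Without a known strand setting, reads in shared bases cannot be told apart. OASL, a relative of the family without oligoadenylate synthesis, had the largest fitted change, from 6.2 and 25.6 in shcontrol to 59 and 61.3 in shBDH1. Its log2 fold change was 2.15 (SE 0.55, adjusted p = 0.0022), and its size depended on the shcontrol libraries, which differed from each other by more than the shBDH1 ones. Without shcontrol replicate 1 it was 1.20 (adjusted p = 0.04), and without shcontrol replicate 2 it was 3.09 (2.3e-06).

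IFIT proteins bind foreign RNA, mostly through its 5′ end, and keep it from being translated. Of the 4 measured, 3 rose. IFIT3, which stabilises IFIT1 on RNA, had 39 and 32.7 normalized counts in shcontrol and 134.7 and 100.6 in shBDH1, a log2 change of 1.68 (limma SE 0.33, adjusted p = 0.00012). IFIT5, the most abundant of the family, had 417.9 and 440.5 against 738.1 and 782.4, a change of 0.82 (SE 0.11, adjusted p = 4.5e-07). Neither gene's groups overlapped.

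IFIT2 had 76 and 97.1 in shcontrol and 149.4 and 188.1 in shBDH1, a log2 change of 0.96 (limma SE 0.24, adjusted p = 0.0021), and 0.79 (adjusted p = 0.065) without shBDH1 replicate 2. IFIT1, which recognises RNA that lacks cap methylation, had 53.4 and 61.3 in shcontrol and 82.6 and 83.5 in shBDH1. Its groups did not overlap either, but at this level the change of 0.53 (95% interval -0.11 to 1.17) did not pass (adjusted p = 0.18).

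MX1 and MX2 are dynamin-like GTPases that trap viral nucleocapsids, and both rose. MX1 had 114 and 157.4 normalized counts in shcontrol and 222.1 and 209.2 in shBDH1, a log2 change of 0.68 (limma SE 0.21, adjusted p = 0.0088). It went to 0.45 (adjusted p = 0.14) without shcontrol replicate 1 and to 0.64 (0.082) without shBDH1 replicate 1. MX2 had 84.2 and 114.5 against 190.7 and 172, a change of 0.88 (SE 0.23, adjusted p = 0.0029), and 0.80 (0.053) without shBDH1 replicate 1.

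In the ISG15 system, 3 of the 4 genes did not pass, 1 fell and the median log2 fold change was 0.04. With limma, edgeR, DESeq2 and limma-voom alike, 0 of the 4 rose, also at an unadjusted p under 0.05. ISG15 is a ubiquitin-like protein that is joined to other proteins by ligases such as HERC5 and is removed by the protease USP18. ISG15 itself had 517.5 and 538.6 normalized counts in shcontrol and 537.6 and 585.3 in shBDH1, a change of 0.09 (95% interval -0.14 to 0.32, limma adjusted p = 0.57). HERC5 had 1398 and 1395 against 1415 and 1496, a change of 0.06 (-0.09 to 0.21, adjusted p = 0.55). HERC6, its neighbour and relative, had 569.9 and 552.9 against 554.3 and 586.3. Its groups overlapped, as did those of ISG15, where the lower shBDH1 library lay just below the higher shcontrol one.

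USP18, which also damps signalling at the type I interferon receptor, was the one member that fell. It had 625.3 and 665.3 normalized counts in shcontrol and 547.5 and 523.9 in shBDH1, a log2 change of -0.27 (limma SE 0.11, adjusted p = 0.047). The call sat at the threshold. Leaving out any single library ended it, with -0.31 (adjusted p = 0.073) and -0.22 (0.23) without shcontrol replicates 1 and 2, and -0.30 (0.085) and -0.24 (0.17) without shBDH1 replicates 1 and 2. A near-identical copy, USP41, had 24.6 and 24.5 in shcontrol and 71.7 and 54.3 in shBDH1, and how reads were split between the copies is not given in the sources used here.

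The helicases that sense viral RNA in the cytoplasm had a median log2 fold change of 0.07, and 0 of the 3 passed with limma, edgeR, DESeq2 or limma-voom. At an unadjusted p under 0.05 it was 1 of the 3, DDX60, with each tool but DESeq2, where it was 0. RIG-I (DDX58), which detects RNA ends with a 5′ triphosphate, had 437.4 and 493.6 normalized counts in shcontrol and 438.4 and 538 in shBDH1, a log2 fold change of 0.06 (95% interval -0.2 to 0.32). MDA5 (IFIH1), which detects long double-stranded RNA, had 331.7 and 355.7 against 344 and 377.1, a change of 0.07 (-0.22 to 0.35). DDX60, a related helicase, had 609.9 and 677.6 against 707.7 and 783.4, and its groups did not overlap. Its change of 0.21 (0.0 to 0.42) missed the threshold (limma adjusted p = 0.1).

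Among the transcription factors, IRF1 and IRF7 rose while STAT2 did not pass. IRF1 (ENSG00000125347, chr 5), a transcriptional activator also reached by NF-kB, had 644.8 and 736.9 normalized counts in shcontrol and 1436 and 1414 in shBDH1. This is a log2 change of 1.05 (limma SE 0.09, adjusted p = 8.4e-11). AC116366.3, on the opposite strand, shares 469 exon bases with IRF1 and had 160.18 and 133.89 in shcontrol and 295.84 and 278.56 in shBDH1. Another gene on that strand, C5orf56, shares 1716 of the exon bases and had 1.03 and 2.04 against 4.91 and 1.01. The part of shared bases in the IRF1 change was not tested.

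IRF7, the factor that amplifies type I interferon production, had 248.5 and 199.3 in shcontrol and 309.6 and 321.8 in shBDH1, a log2 change of 0.50 (limma SE 0.16, adjusted p = 0.014). It was lost without shcontrol replicate 2 (0.34, adjusted p = 0.17), without shBDH1 replicate 1 (0.53, 0.062) and without shBDH1 replicate 2 (0.47, 0.093). STAT2 had 1376 and 1389 against 1545 and 1494. Its groups did not overlap, and its change of 0.14 (95% interval -0.01 to 0.28) did not pass (adjusted p = 0.14).

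IRF9, the DNA-binding part of the complex with STAT2, was at 0 to 4.1 normalized counts in the 4 libraries and was not tested. Another gene of the annotation on the same strand, AL136295.5, covers 1838 of its exon bases (48.4%) and itself had 4.09 to 14.08. How reads in those shared bases were counted is not given in the sources used here, so the level of IRF9 is uncertain.

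The other effectors were mixed, with 4 of 9 passing, all upward. IFI6, a small membrane protein that blocks cell death and some viral replication, had 322.4 and 332.2 normalized counts in shcontrol and 581.9 and 550.1 in shBDH1, a log2 change of 0.79 (limma SE 0.12, adjusted p = 7e-06). ISG20, an RNA exonuclease, had 165.3 and 148.2 against 242.8 and 267.5, a change of 0.70 (SE 0.18, adjusted p = 0.0028). In both genes the shBDH1 libraries lay well clear of the controls.

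IFI44, a cytoplasmic protein with antiviral activity, had 263.9 and 226.9 in shcontrol and 402 and 326.8 in shBDH1. Its log2 fold change was 0.57 (SE 0.16, limma adjusted p = 0.0043), and 0.42 (0.12) without shBDH1 replicate 1. BST2, or tetherin, which holds budding virions at the cell surface, had 134.5 and 165.6 against 257.5 and 204.1, a change of 0.62 (SE 0.2, adjusted p = 0.013). It stood at 0.47 (adjusted p = 0.11) without shcontrol replicate 1 and at 0.45 (0.2) without shBDH1 replicate 1.

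The remaining 5 effectors did not pass. RSAD2 (viperin), which makes a chain-terminating nucleotide, had 224.9 and 223.8 normalized counts in shcontrol and 203.5 and 217.2 in shBDH1. XAF1, a pro-apoptotic protein, had 2136 and 1947 against 2048 and 2131, with overlapping groups, and PRAL on the opposite strand shares 38.3% of its exon bases. IFI27, a mitochondrial relative of IFI6, had 86.2 and 71.5 against 105.2 and 116.7, with a change of 0.49 (95% interval -0.06 to 1.04, limma adjusted p = 0.15). RSAD2 and XAF1 are well enough covered that their intervals end at 0.26 and 0.17 (log2), which sets them apart in precision from the low genes. IFI35 had 115 and 96.1 against 81.6 and 108.6, and IFI44L, the neighbour of IFI44, only 8.2 and 11.2 against 12.8 and 12.1. At that depth the interval of IFI44L ran from -1.23 to 1.9 (log2).

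**Figure D4:**
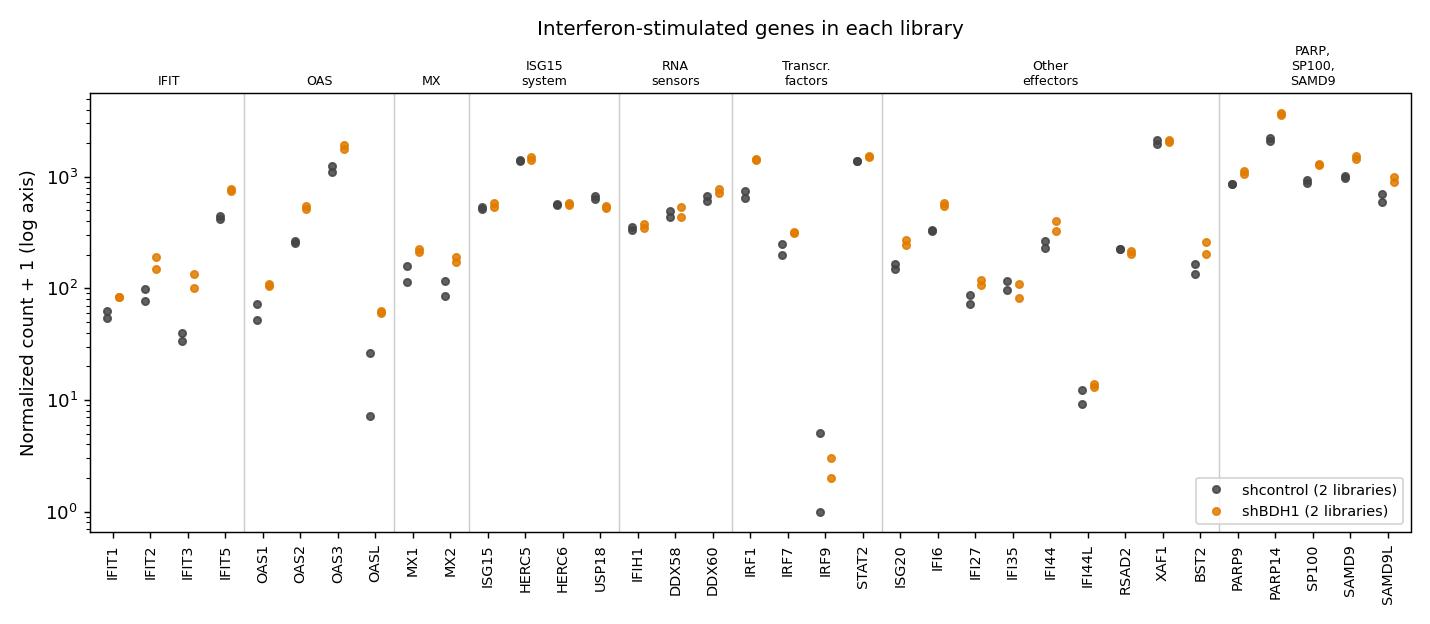
Normalized count + 1 (log axis) of each of the 35 genes in each library, shcontrol in grey and shBDH1 in orange (2 points each, no error bars), grouped by role. The shBDH1 points lie above the shcontrol points in the IFIT, OAS, MX and PARP, SP100 and SAMD9 groups, and overlap or nearly so for ISG15, HERC5, HERC6, DDX58 and IFIH1.

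The last group was uniform: PARP9, PARP14, SP100, SAMD9 and SAMD9L all rose. PARP14 (ENSG00000173193, chr 3), a mono-ADP-ribosyltransferase, had 2233 and 2102 normalized counts in shcontrol and 3737 and 3560 in shBDH1, a log2 change of 0.75 (limma SE 0.06, adjusted p = 1.4e-11), the smallest p of the set. PARP9, which acts with the ubiquitin ligase DTX3L, had 867.6 and 860.5 against 1052 and 1123, a change of 0.33 (SE 0.09, adjusted p = 0.0025). SP100, a scaffold of PML nuclear bodies, had 925.1 and 885.1 against 1293 and 1277, a change of 0.51 (SE 0.08, adjusted p = 9.5e-06). None of these groups overlapped.

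SAMD9 and SAMD9L are neighbours on chromosome 7 that restrict poxviruses and slow cell growth when overactive. SAMD9 had 1017 and 971.9 normalized counts in shcontrol and 1546 and 1435 in shBDH1, a log2 change of 0.58 (limma SE 0.08, adjusted p = 6.2e-07). SAMD9L had 594.5 and 695 against 893.4 and 1002, a change of 0.56 (SE 0.1, adjusted p = 4.7e-05). The neighbours thus differed by less than the error of either value.

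Several of the genes lie in clusters, and neighbours did not always share a call. On chromosome 12, OAS1, OAS3 and OAS2 are separated by 5129 and 5145 bases, and each rose. MX2 and MX1 on chromosome 21 are 10913 bases apart and both rose. In the chromosome 10 cluster, IFIT1 did not pass although it lies between IFIT3 (51574 bases away) and IFIT5 (8099 bases away), which rose. HERC6 and HERC5 on chromosome 4 did not pass, and IFI44L did not pass beside IFI44, which rose. Whether neighbouring genes differ from each other in fold change was not tested.

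Levels per length were compared as RPKM, reads scaled to exon length and library total, computed from the recovered reads and GENCODE 29 exon lengths. In shcontrol, ISG15 had the highest RPKM of the set, 19.1, followed by IFI6 at 12.9, XAF1 at 10.5, USP18 at 10.3 and HERC5 at 9.95. OASL (0.153) and IFI44L (0.0323) were the lowest of the tested genes. In shBDH1 the order at the top turned, with IFI6 at 22.6 and ISG15 at 20.6. By RPKM in shcontrol, 5 of the 10 highest rose, with a median log2 fold change of 0.36. In the middle 14 it was 8, with a median of 0.42, and in the 10 lowest 7, with a median of 0.75. The shcontrol values that set this order also enter the fold change, so order and fold change are not independent and no trend is read from them. By mean normalized count, 3 of 6 members rose at 10 to 100, 12 of 20 at 100 to 1000 and 5 of 8 above. Over all genes the share that rose was 11.8%, 20.7% and 26.2% at the same levels, with a median SE of 0.5, 0.14 and 0.06.

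The rest of the pathway was described from fixed lists, which like the members were drawn up with earlier results of these data known. Interferon genes themselves gave little to measure. Of 21 ligand genes searched, the table held IFNL1, at 1.0 and 9.2 normalized counts in shcontrol and 1.0 and 0.0 in shBDH1, and the other 20 were not analysed here.

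Of 8 tested receptor and JAK kinase genes, 3 rose (37.5%, against 20.3% of all genes) and 5 did not pass, with a median log2 fold change of 0.21. IFNAR2, a chain of the type I receptor, was on the list but was not analysed here. With limma, edgeR, DESeq2 and limma-voom alike, 0 of the 8 fell, and at an unadjusted p under 0.05 it was 1 with each tool but DESeq2, where it was 0. JAK1, the kinase shared by all interferon receptors, had 2488 and 2695 normalized counts in shcontrol and 4336 and 4312 in shBDH1, a log2 change of 0.74 (limma SE 0.05, adjusted p = 6.4e-12). The receptor chains IFNAR1 (2345 and 2263 against 2735 and 2597, a change of 0.21) and IFNGR2 (2288 and 1998 against 2408 and 2698, a change of 0.25) passed at adjusted p = 0.0054 and 0.0037. IFNAR1 was lost without shcontrol replicate 2 (0.18, adjusted p = 0.062) and without shBDH1 replicate 1 (0.17, 0.058). IFNGR2 was lost without shcontrol replicate 2 (0.16, adjusted p = 0.13) and without shBDH1 replicate 2 (0.17, 0.11).

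Of 12 tested sensors and adaptors that act upstream of interferon, 5 rose (41.7%) and 2 fell (16.7%), against 20.3% and 20.8% of all genes, with a median of 0.02. STING (TMEM173), the adaptor that answers cytosolic DNA, had 391.2 and 500.8 normalized counts in shcontrol and 1451 and 1501 in shBDH1, a log2 change of 1.74 (limma SE 0.1, adjusted p = 5.9e-14). TBK1, the kinase it recruits, had 920 and 924.9 against 1683 and 1581, a change of 0.82 (adjusted p = 9.1e-10), and the related kinase IKBKE had 612 and 623.4 against 966.2 and 962.4, a change of 0.64 (2.3e-06). All 3 moved upward, with groups that did not overlap. The DNA sensor IFI16 fell, from 8782 and 8738 to 6728 and 6934, a change of -0.36 (adjusted p = 3.5e-08). The sensor cGAS (CGAS) was at 3.1 to 18.1 normalized counts and fell short of the mean needed for the test.

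Of 12 tested genes that limit the response, 6 rose and 3 fell, where 20.3% and 20.8% of all genes did, with a median of 0.31. DESeq2 called 5 and 2. The phosphatase PTPN6 (SHP-1) had 2628 and 2578 normalized counts in shcontrol and 4626 and 4728 in shBDH1, a log2 fold change of 0.85 (limma adjusted p = 1.2e-13), and IRF2, a repressor at response elements, had 707.5 and 720.5 against 941.6 and 1092, a change of 0.51 (7.2e-05). RNASEH2C, a subunit of the enzyme that clears RNA from DNA hybrids, fell from 3564 and 3635 to 2644 and 2690, a change of -0.43 (adjusted p = 1.8e-07). ADAR, which edits double-stranded RNA so that MDA5 does not sense it, fell from 13992 and 14370 to 12361 and 12408, a change of -0.20 (adjusted p = 5.4e-05). RNASEH2C shares 1439 exon bases with KAT5 on the opposite strand, which had 2405.76 and 2500.89 in shcontrol and 1823.23 and 1974.05 in shBDH1.

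Of 51 further interferon-stimulated genes tested, 22 rose (43.1%, against 20.3% of all genes) and 11 fell (21.6%, close to the 20.8% of all genes), with a median of 0.18. The difference between this list and the 34 members, of which 1 fell, was not tested. SLFN5 had 2190 and 2353 normalized counts in shcontrol and 4600 and 4518 in shBDH1, a log2 fold change of 1.01 (limma adjusted p = 8.8e-15). The guanylate-binding proteins GBP1 (719.8 and 677.6 against 1507 and 1525, a change of 1.12) and GBP5 (204.3 and 269.8 against 913.1 and 892, a change of 1.94) passed at adjusted p = 7.4e-12 and 9.1e-13. GBP5 shares 324 exon bases with AC099063.1 on the opposite strand, which had 102.68 and 140.02 against 506.18 and 576.22. ZC3HAV1 (ZAP), which destroys viral RNA rich in CpG, had 2898 and 2885 against 4697 and 4611, a change of 0.69 (7e-12). ADAR, IRF2 and IFI16 stand in this list and in another of the lists.

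**Figure D5:**
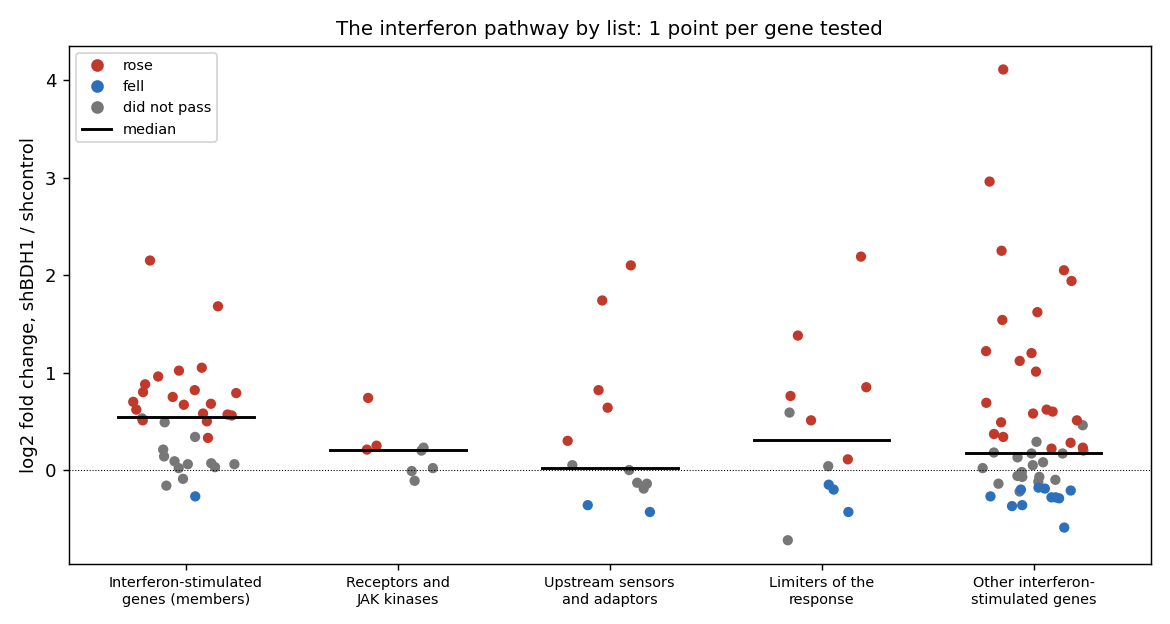
Log2 fold change of each tested gene of the 35-gene set and of the 4 other lists with tested genes (1 point per gene; red rose, blue fell, grey did not pass; the bar is the median; horizontal scatter has no meaning). The medians are 0.54, 0.21, 0.02, 0.31 and 0.18 from left to right, and the genes that fell number 1, 0, 2, 3 and 11.

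Markers of other cell types were read in the same libraries. The summed level of 7 monocyte markers was 62.6 and 75.5 normalized counts in shcontrol and 110 and 104 in shBDH1, with LYZ at 0 in 3 of the 4 libraries. The 6 plasmacytoid dendritic cell markers, a cell type known for making interferon, summed to 1883 and 2040 against 2640 and 2393, nearly all from PTPRS and TCF4, with LILRA4 at 0 to 1.0. The 4 B cell markers summed to 220 and 220 against 694 and 666, mostly from CD79A. The 5 NK cell markers summed to 106 and 103 against 426 and 353, where PRF1, NKG7 and NCAM1 rose. GNLY (23.6 and 10.2 against 3.9 and 20.1) did not pass. KLRD1 (9.2 and 8.2 against 5.9 and 11.1) fell short of the mean needed for the test. The 3 fibroblast and epithelial markers summed to 718 and 732 against 1031 and 922. KRT8 (1.19) and COL1A1 (0.44, log2) rose, and KRT18 (-0.38) did not pass. Each of these sums was higher in shBDH1, as the interferon-stimulated genes were, and their part in the result was not tested.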

How the data were processed

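RNA from 4 Jurkat libraries was read as mRNA sequencing with paired ends, per the labels' protocols. Build hg38, HISAT2 2.2.1 and FastQC 0.11.9 are listed in the submitters' processing notes. Which counter, strand setting, annotation and scaling tool were used is not given in the sources used here. The deposited values are a normalized signal: counts per gene that, judged from the values, the authors scaled by a size factor for each library. Dividing by the smallest step returned whole reads for 100.0% of values (tolerance 0.01 reads), with size factors of 0.9739 and 0.9785 (shcontrol) and 1.0174 and 0.9944 (shBDH1). No column of values was left unused.

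The main test was limma (3.58.1, R 4.3.3) with an intensity-dependent prior on log2(deposited value + 1), for genes with a mean of at least 10. It had 2 residual and 25.8 prior degrees of freedom and a median SE of 0.12, with Benjamini-Hochberg adjustment over 19301 genes at a threshold of 0.05. The added 1 shrinks the fold change of low genes. The fit can still exceed that of a count model, as for OASL, at 2.15 here and 1.92 with edgeR on recovered reads. The labels do not say whether the libraries of a group are separate cultures, and p-values then reflect only how far these libraries differ, which can be technical. The chi-square per degree of freedom was 3.71 and 4.98 within groups and 42.42 to 45.17 between them, so the libraries of a group differed by more than sampling noise. Alternatives were edgeR 4.0.16, DESeq2 1.42.0 and limma-voom on recovered reads, other scalings, pseudocounts and filters, the replicate block, and each library left out.

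The members and lists were chosen with earlier results of these data known. Named genes were every member, BDH1 and, of each pathway list, up to 4 that passed with the smallest p. One further gene that the rule takes is not reported here; IFNL1, CGAS and the cell type markers named stand outside the rule and were chosen after their values were seen. Gene positions are from GENCODE 29, and DDX58 took its promoter from the RefSeq symbol RIGI. Of the 29 promoters, 28 end in a GENCODE transcript on the same strand. Scripts were tested on simulated data. Python 3.11.15, numpy 2.4.6, pandas 2.3.3 and matplotlib 3.10.9 were used.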

Additional observations from a re-analysis of the deposited data

How the results depend on the processing

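Of the 20 members that rose, 13 passed under every alternative that tested them (OASL fell short of a mean of 50): IFIT3, IFIT5, OAS2, OAS3, OASL, IRF1, ISG20, IFI6, PARP9, PARP14, SP100, SAMD9 and SAMD9L. The count of rises was 19 with DESeq2, without a filter and with a mean of at least 50, and 14 to 18 with 1 library left out, lowest without shBDH1 replicate 1. No member outside the 20 rose under any alternative. OAS1 was lost with DESeq2 (0.80, adjusted p = 0.081) and without a filter (0.80, 0.072). The number of members that fell went from 1 to 0 with edgeR under TMM, RLE, upper-quartile and library-total scaling, with DESeq2, with limma-voom, without a filter, and in each of the 4 fits that left out a library (range 0 to 0). At an unadjusted p under 0.05, USP18 still fell in these, except with DESeq2 and without shcontrol replicate 2 or shBDH1 replicate 2, where the count was 0. The cause was not tested.

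The members' median of 0.54 moved to 0.59 with upper-quartile scaling, 0.57 with library totals and 0.50 to 0.55 with 1 library left out. It was 0.56 without the members whose exons overlap another gene in the table (25 tested, 14 rose, 1 fell), an alternative chosen after seeing the data. The members that rose and were left out by it were IFIT2, OAS1, MX1, IRF1, PARP9 and SP100. Of the pathway genes named as rising, JAK1, IFNGR2, TBK1, IKBKE and GBP5 also share exon bases with another gene in the table. Signs turned only among members that never passed: with 1 library left out, DDX58 ranged from -0.08 to 0.21 (below 0 without shcontrol replicate 1 and without shBDH1 replicate 2), XAF1 from -0.03 to 0.10, IFI35 from -0.36 to 0.05 and HERC6 from -0.02 to 0.06. The deviations of same-numbered libraries correlated at 0.035 over 13922 genes, so no pairing by replicate number was seen in them. That does not settle whether the libraries were handled in pairs. With the number as a replicate block, 20 members rose and 1 fell, with a median of 0.54, and 4108 of all genes rose and 4217 fell. With 2 libraries per group, genes under 100 normalized counts had a median SE of 0.5, which limits what could be called there.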

Other observations

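The genes in these paragraphs were chosen after their values were seen. The guanylate-binding proteins, GTPases that attack intracellular pathogens and answer interferon-gamma strongly, went beyond the 2 already named. GBP2 had 15.4 and 13.3 normalized counts in shcontrol and 134.7 and 103.6 in shBDH1, a log2 fold change of 2.96 (limma adjusted p = 7e-07). GBP3 had 212.5 and 226.9 against 321.4 and 298.7, a change of 0.49 (adjusted p = 0.014), which was lost without shcontrol replicate 1 (0.45, 0.068) and without shBDH1 replicate 1 (0.44, 0.11). GBP4 had 0 and 1 against 16.7 and 33.2. It passed with limma adjusted p = 0.0034 (log2 fold change 4.11), and the call was lost without shBDH1 replicate 2 (3.64). GBP4 reached the mean needed for the test only through shBDH1, where its mean was 24.9 against 0.5 in shcontrol. From that shcontrol level, no change or a fall could not have been tested, so the filter left room only for a rise. GBP1, GBP2, GBP3 and GBP5 thus passed upward without such a limit from the filter.

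The enzymes that load ISG15 onto its targets had different calls. UBA7, the activating enzyme, had 105.8 and 108.3 normalized counts in shcontrol and 246.7 and 254.4 in shBDH1, a log2 fold change of 1.22 (limma adjusted p = 1.3e-05). UBE2L6, the conjugating enzyme, had 2129 and 2086 against 1998 and 1930 and did not pass (-0.10, adjusted p = 0.21).

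SOCS1, a feedback inhibitor that blocks JAK kinases, rose from a low level. It had 16.4 and 11.2 normalized counts in shcontrol and 60.9 and 70.4 in shBDH1, a log2 fold change of 2.19 (limma adjusted p = 0.00043), and passed under the 14 alternatives that tested it.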
